A study of Mus musculus with 34 samples.

Results

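Dlg1 and 9 other genes of cell polarity were followed through single mouse preimplantation embryos, from the zygote to the blastocyst. The 10 genes were chosen by symbol: Dlg1 because its level was higher in R442Q than in WT blastocysts, and Dlg5, Scrib, Llgl1, Llgl2, Pard3, Pard6b, Prkci, Prkcz and Ezr because they act in the same polarity system. The difference of Dlg1 between blastocyst groups is therefore given below as a description, and its passing a threshold there supports nothing. All 10 were found among the 49686 gene symbols of the zygote and late 2-cell tables and the 51734 symbols of the blastocyst table. Zygotes had been injected with mRNA for wild-type (WT) CHK1 or for a mutant CHK1 named R442Q. CHK1 is a checkpoint kinase that acts when DNA is damaged, and the study's title asks what happens to early embryos when that checkpoint is perturbed. Each library was 1 embryo: with WT and R442Q mRNA, respectively, there were 5 and 6 zygotes, 4 and 5 late 2-cell embryos, and 7 and 7 blastocysts. The blastocysts, WT ones included, also received 30 nM of a CHK1 inhibitor, so by the labels their 2 groups differed in the injected mRNA. The labels name no uninjected embryos, describe no deletion of the embryos' own Chek1 and give no parentage.

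Cell polarity gives a cell an apical and a basolateral side, and 3 protein modules keep them apart. The Scribble module, made of Scrib, a Dlg protein and an Lgl protein, works at the basolateral side and at cell junctions. The PAR module, made of Pard3, a Pard6 protein and an atypical protein kinase C, works at the apical side, and the Crumbs complex works with it. Each side keeps the other back, in part because the kinase phosphorylates Lgl. In the mouse embryo the outer cells acquire an apical domain around compaction, with the PAR module and the membrane linker ezrin in it, and these cells form the trophectoderm. Zygotes and 2-cell embryos come before that step, and most of their early RNA was stored by the egg, whereas embryonic transcription dominates from the 2-cell stage on.

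Total counts were 7183632 to 11296522 in zygotes and 5727956 to 8916343 in late 2-cell embryos. Blastocysts had FPKM values only, that is, fragments scaled to transcript length and library size, and their depth in counts is unknown. Chek1, the injected gene, was at 4594 to 8654 CPM (counts scaled to the library total) in zygotes and 259 to 720 CPM in late 2-cell embryos. It was at 7.05 to 38.3 FPKM in blastocysts. Its WT and R442Q ranges overlapped at each stage, and gene counts do not tell the mutant mRNA from the WT one. R442Q blastocyst replicate 7 stood apart from its group, with 8189 genes at an FPKM of at least 1 and a median correlation of 0.815 with the other R442Q blastocysts. In blastocysts the trophectoderm markers summed to 3217 to 24320 FPKM in WT and 1270 to 12900 in R442Q embryos, with all 7 above an FPKM of 1 at the median in both. The 7 cumulus cell markers summed to at most 1.2 FPKM there, and to at most 21.2 FPKM in late 2-cell embryos.

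Dlg1 encodes a scaffold protein of the MAGUK family that gathers partners at the lateral membrane. The gene lies at chr16:31663443-31875129 on the plus strand (GRCm38, GENCODE M21) and has 15 annotated transcripts of 470 to 6143 bases. Of its 50-base stretches, 0.596% also occur in other genes. Gm49705 and Gm49712 overlap it on the same strand, and Gm24879 and Gm49713 on the opposite one. The counting's use of strand is not stated, so reads from any of the 4 may not be told from its own. To show where Dlg1 transcripts can start, the 250 bases before each of its 4 RefSeq start sites (GRCm38.p6) are shown, with GC boxes, CCAAT boxes and TATA boxes in capitals. The first window, chr16:31663193-31663442, lies before the start of the longest transcript, of 6143 bases. The second, chr16:31663685-31663934, lies before a transcript of 4711 bases, near the starts of 4 further long transcripts. The third, chr16:31695298-31695547, lies within the GENCODE gene at no GENCODE start. The fourth, chr16:31754100-31754349, lies before a coding transcript of 3418 bases that starts far inside the gene.
Dlg1 window 1: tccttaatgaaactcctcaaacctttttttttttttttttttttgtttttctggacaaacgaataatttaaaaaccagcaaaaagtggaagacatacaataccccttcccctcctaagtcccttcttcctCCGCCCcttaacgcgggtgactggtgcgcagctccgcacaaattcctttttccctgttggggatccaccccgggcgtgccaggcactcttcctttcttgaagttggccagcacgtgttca
Dlg1 window 2: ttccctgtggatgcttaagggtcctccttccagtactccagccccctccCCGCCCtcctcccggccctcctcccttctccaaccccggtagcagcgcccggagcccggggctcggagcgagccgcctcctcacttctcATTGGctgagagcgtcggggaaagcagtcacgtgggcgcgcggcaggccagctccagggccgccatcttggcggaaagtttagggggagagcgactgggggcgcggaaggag
Dlg1 window 3: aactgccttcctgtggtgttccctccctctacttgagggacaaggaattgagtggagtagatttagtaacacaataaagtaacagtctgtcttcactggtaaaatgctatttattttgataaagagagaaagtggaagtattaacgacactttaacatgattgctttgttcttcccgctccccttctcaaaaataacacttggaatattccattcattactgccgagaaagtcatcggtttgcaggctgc
Dlg1 window 4: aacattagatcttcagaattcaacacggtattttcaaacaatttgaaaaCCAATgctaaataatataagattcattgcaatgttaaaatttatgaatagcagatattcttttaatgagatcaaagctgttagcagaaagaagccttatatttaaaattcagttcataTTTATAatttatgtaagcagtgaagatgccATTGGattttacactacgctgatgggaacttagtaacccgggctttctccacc
The GC content of these windows was 46.0%, 68.8%, 40.0% and 30.8%, in that order. A GC box (GGGCGG or CCGCCC) was found once in window 1 and once in window 2. A CCAAT box (CCAAT or ATTGG) was found once in window 2 and at 2 places in window 4, and a TATA box (TATAAA or TTTATA) once in window 4. Of the 32851 RefSeq windows of the same length, 32.7% hold a GC box, 33.8% a CCAAT box and 12.4% a TATA box. These matches are letters in a sequence, and the expression tables do not say which start site was used.

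By FPKM, Dlg1 ranged alike in zygotes of both genotypes and in WT late 2-cell embryos, and higher in most R442Q late 2-cell embryos and in all blastocysts. Counts, given further on, show a smaller gap between the late 2-cell genotypes and a fall from zygote to late 2-cell stage in WT. In zygotes it was at 13.6, 17.2, 17.5, 13.9 and 8.95 FPKM in WT replicates 1 to 5. In R442Q zygotes it ranged from 9.47 to 16.3 FPKM with a median of 13.2, within the WT range. The edgeR difference between zygote groups was 0.01 ± 0.16 on the log2 scale (R442Q minus WT, ± SE, n = 5 and 6, adjusted p = 0.988). Late 2-cell WT embryos had 17.1, 9.30, 16.0 and 24.3 FPKM, and R442Q ones had 13.4, 57.8, 120, 65.0 and 74.6 FPKM. Of the 5 R442Q embryos, 4 lay above every WT embryo and replicate 1 lay among them. The mean was 3.97 times that of WT.

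Counts gave a smaller difference than FPKM. Late 2-cell WT embryos had 35.6, 5.29, 21.7 and 23.3 CPM of Dlg1, and R442Q embryos had 20.7, 51.1, 58.0, 27.4 and 29.0 CPM. The groups overlapped, the ratio of means was 1.73, and the difference of 0.88 ± 0.50 (log2) was not past the threshold (edgeR, adjusted p = 0.329). It was 0.55 without WT replicate 2 and 1.17 without WT replicate 1. The adjusted p stayed above the threshold under every alternative tried, with a lowest value of 0.0729 in limma on log2(FPKM + 1), where the difference was 1.71. The sum of all FPKM was also higher in R442Q late 2-cell embryos, 814376 to 976830 against 712234 to 742246 in WT. Taken as a share of that sum, the ratio of Dlg1 means was 3.34.

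By construction, the CPM and the FPKM of a gene in 1 embryo differ by the transcript length used for FPKM. This holds for each embryo and not exactly for ratios of group means. A gene's count divided by its FPKM and by the library's total gives that length, here called the implied length, and it averages over the transcripts to which reads were assigned. For a gene with 1 annotated transcript it is nearly fixed. Pard6b, with a single one of 3399 bases, had a mean implied length of 3271 to 3376 bases in the 4 groups of zygotes and late 2-cell embryos. Even so, its late 2-cell groups did not overlap, at 3346 to 3401 bases in WT and 3259 to 3330 in R442Q. Pard6b cannot show how steady the measure is in genes with many transcripts, such as Dlg1. The implied length of Dlg1 was 2409 to 2743 bases in WT zygotes and 2140 to 3122 bases in R442Q zygotes. In late 2-cell embryos it was 2082, 569, 1357 and 960 bases in WT and 1549, 885, 483, 421 and 389 bases in R442Q replicates. All 9 late 2-cell embryos thus lay below every zygote, and 3 of the 5 R442Q embryos lay below every WT embryo. The genotypes overlapped through WT replicate 2 and R442Q replicate 1.

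A shorter implied length in R442Q late 2-cell embryos was not particular to Dlg1. Among 5063 genes whose implied length varied by over 5%, 9.97% were shorter in every R442Q than in every WT embryo, 0.869% were longer in every one, and the median ratio of R442Q to WT was 0.939. The ratio for Dlg1 was 0.6, and 3.71% of these genes had a lower one. In zygotes the median ratio was 1 and that of Dlg1 1.01. In GENCODE M21 the shortest coding transcript of Dlg1 has 1073 bases. Those of 470 to 678 bases are annotated as retained introns, processed transcripts or targets of nonsense-mediated decay. Late 2-cell WT replicates 2 and 4 and R442Q replicates 2 to 5 had an implied length below 1073 bases. A higher FPKM of Dlg1 is therefore not a measure of its coding mRNA alone. The tables give 1 value per gene symbol, so which of the 15 Dlg1 transcripts took the reads was not analysed here.

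**Figure D1:**
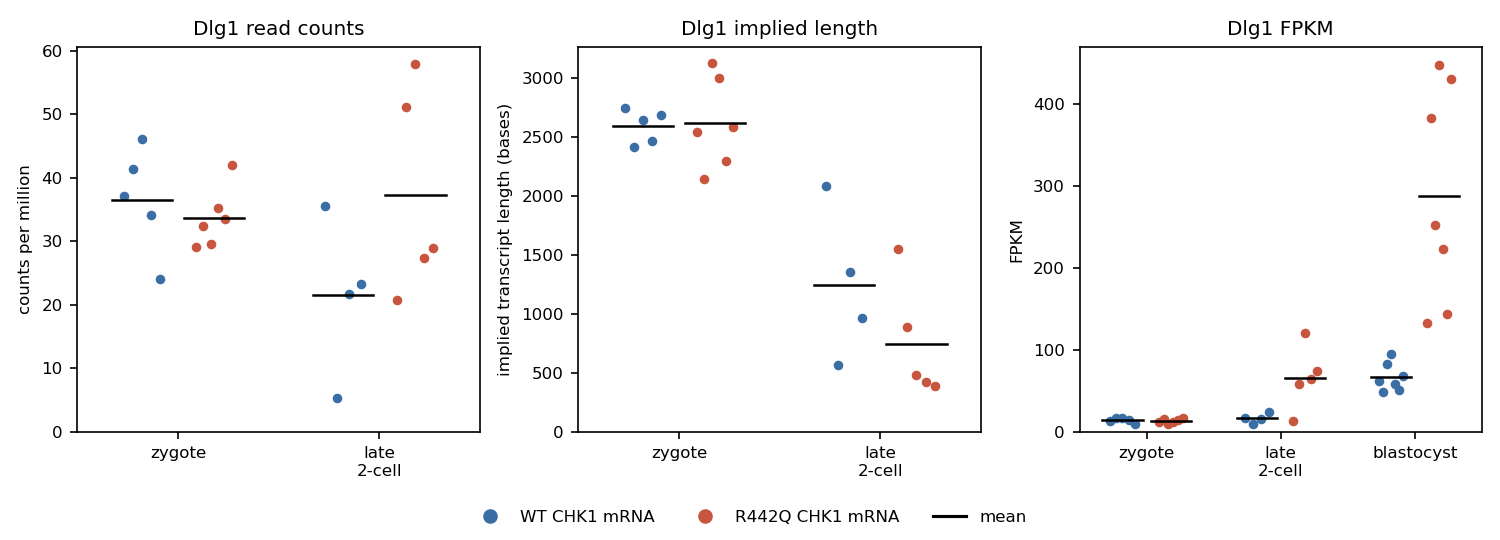
Dlg1 in every embryo, as CPM and implied transcript length in bases (zygotes and late 2-cell embryos) and as FPKM (all 3 stages); points are embryos and bars are group means. Implied length is lower in all late 2-cell embryos than in all zygotes, and R442Q blastocysts start at 133 FPKM, above the highest WT blastocyst at 94.7.

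In blastocysts Dlg1 was at 48.5 FPKM in the lowest WT embryo, 61.7 at the median and 94.7 in the highest. The R442Q embryos ran from 133 through a median of 252 to 448 FPKM. The groups did not overlap, and the R442Q mean was 4.33 times the WT mean. On the log2(FPKM + 1) scale the difference was 1.99 ± 0.29 (SE), and it was 1.87 without R442Q replicate 7 and 1.93 without WT replicate 6, the embryo with the fewest detected genes among the WT. This is the contrast by which Dlg1 was chosen: it was the single gene past the threshold of the 11297 tested (limma, 0.00885%). Its call was lost in 10 of 14 fits without 1 embryo, and the number of genes called over those fits ran from 0 to 2, other than 30 without WT replicate 7. In all, 47 genes (0.416%) did not overlap between the groups. The epiblast markers summed to 113 to 760 FPKM in WT and 87.0 to 502 in R442Q blastocysts, and the primitive endoderm markers to 14.3 to 228 and 9.18 to 73.9. The part of these lineage markers, and of those of trophectoderm above, in the level of Dlg1 was not tested. In whole embryos, fewer cells of a type and less RNA per cell cannot be told apart. As blastocysts have no count table here, more Dlg1 reads and a shorter implied length cannot be told apart there either.

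By mean FPKM the 6 groups ranked from R442Q zygotes (13.1) through WT zygotes (14.2), WT late 2-cell embryos (16.7), R442Q late 2-cell embryos (66.2) and WT blastocysts (66.3) to R442Q blastocysts (287). Each neighbouring pair in this order overlapped except the last. The tables of the 3 stages were normalised separately, and by the labels only the blastocysts had the inhibitor, so the order across stages is a description. The 5 genes whose log2(FPKM + 1) varied most like that of Dlg1 over the 14 blastocysts, both genotypes pooled, were Dph5, Dcaf10, Churc1, Polg2 and Gm15506. Their Pearson r, taken on deviations from the genotype mean among 11296 other genes, was 0.78 to 0.80. Over the 7 WT embryos alone it was 0.22 for Gm15506, 0.40 for Dcaf10 and 0.59 to 0.87 for the others, and over the 7 R442Q embryos 0.79 to 0.90 for all 5. The points share libraries and depth, and no p is given. Among the polarity genes the r of Scrib was -0.74, at -0.41 over the WT and -0.81 over the R442Q embryos. That of Pard6b was -0.62, at -0.59 and -0.63. The r of Prkcz was -0.43, of Pard3 -0.39, of Ezr -0.31, of Llgl1 -0.13, of Llgl2 0.03 and of Prkci 0.08.

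The partners of Dlg1 in the Scribble module are given next, gene by gene, and no test compared them with Dlg1 or with each other. Dlg5, a more distant MAGUK scaffold (chr14:24133953-24245920, minus strand), was lower in R442Q zygotes: WT replicates had 23.1, 28.5, 21.4, 22.8 and 24.2 CPM, and R442Q ones had 12.1 to 20.2 CPM with a median of 17.4. The zygote groups did not overlap, yet the difference of -0.43 ± 0.17 (log2) was not past the threshold over all genes (edgeR, adjusted p = 0.112). Its late 2-cell counts overlapped, at 7.76 to 22.5 CPM in WT and 2.24 to 15.2 CPM in R442Q (log2 -0.89 ± 0.64, adjusted p = 0.465). With 1 embryo left out, the late 2-cell difference of Dlg5 ran from -1.33 to -0.50. Its implied length there was shorter in every R442Q embryo, with a mean of 2272 bases against 3769 in WT. In blastocysts Dlg5 reached an FPKM of 1 in 6 of 14 embryos and was listed at 0 in 2, and it did not pass the filter on low values.

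Scrib, the large scaffold that gives the module its name (chr15:76047158-76069784, minus strand), was low in zygotes. WT zygotes had 0, 5, 2, 0 and 0 counts and R442Q zygotes 0 to 8, where a count of 0 allows up to 3, and Scrib was not tested at that stage. WT late 2-cell embryos had 45, 27, 64 and 31 counts, and R442Q ones 11, 21, 35, 106 and 66. The genotypes overlapped at the late 2-cell stage (log2 0.24 ± 0.73, adjusted p = 0.891) and in blastocysts, at 2.23 to 6.29 FPKM in WT and 0.14 to 10.98 FPKM in R442Q.

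Llgl1 and Llgl2 are the mouse Lgl proteins, substrates of the atypical kinase. Llgl1 (chr11:60699723-60714186, plus strand, overlapping Flii on the other strand) was at 15.4, 40.5, 22.7 and 21.6 CPM in WT late 2-cell embryos and at 5.00, 16.6, 14.8, 11.9 and 2.69 CPM in R442Q ones. R442Q replicate 2 reached into the WT range, and the difference of -1.25 ± 0.56 (log2) was not past the threshold (edgeR, adjusted p = 0.216). It was -0.07 (adjusted p = 0.973) with the dependence of each library on GC content and gene length taken out, a setting added once the data had been seen. Zygotes had 18.2 to 46.2 CPM of it in WT and 10.1 to 82.5 CPM in R442Q, the widest relative range among the members tested at that stage other than Prkcz. Blastocysts had 1.25 to 10.3 FPKM in WT and 3.43 to 12.0 FPKM in R442Q.

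Llgl2 (chr11:115824049-115855780, plus strand) showed the largest genotype difference in counts of any member. The WT replicates at the late 2-cell stage had 75.4, 133, 72.4 and 114 CPM, and the R442Q replicates had 18.8, 7.51, 19.0, 18.4 and 14.2 CPM. Every R442Q embryo was under every WT embryo by a wide margin. Llgl2 fell 5.99-fold (log2 -2.58 ± 0.38, edgeR, adjusted p = 0.0044). With GC content and length taken out, its difference was -1.30 and the call was lost (adjusted p = 0.147). FPKM showed a smaller ratio, 32.7 to 56.9 in WT against 8.21 to 24.8 in R442Q, because the implied length also differed: 2105 ± 279 bases in WT and 922 ± 207 in R442Q (SD, n = 4 and 5). Only 0.514% of the varying genes had a lower ratio of implied lengths. In zygotes Llgl2 pointed the other way, at 55.9, 26.3, 26.7, 53.1 and 63.4 CPM in WT and 53.8 to 89.0 CPM with a median of 67.5 in R442Q (log2 0.71 ± 0.23, adjusted p = 0.0526). Blastocysts overlapped, at 16.5 to 55.9 FPKM in WT and 20.9 to 93.3 FPKM in R442Q.

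Pard3 is the scaffold of the PAR module that recruits the kinase and Pard6 to the membrane (chr8:127063893-127612286, plus strand, 28 transcripts). WT zygotes had 294, 213, 275, 303 and 317 CPM and R442Q zygotes 326 to 412 CPM with a median of 387. The groups did not overlap, and Pard3 was 1.47-fold higher in R442Q zygotes (log2 0.56 ± 0.12, edgeR, adjusted p = 0.0066). In late 2-cell embryos the order was turned: WT replicates had 356, 325, 622 and 368 CPM, and R442Q replicates had 87.5, 146, 124, 70.7 and 34.9 CPM. Again the groups did not overlap, and Pard3 fell 4.27-fold (log2 -2.09 ± 0.38, adjusted p = 0.0123), a call lost with GC content and length taken out (-1.18, adjusted p = 0.155). In blastocysts it was at 8.81 to 32.4 FPKM in WT, and at 28.0 to 35.3 FPKM in 6 of the R442Q embryos with replicate 7 at 2.23. It was the most abundant member per length in zygotes and in WT late 2-cell embryos, with a mean of 118 and 171 FPKM in WT.

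**Figure D2:**
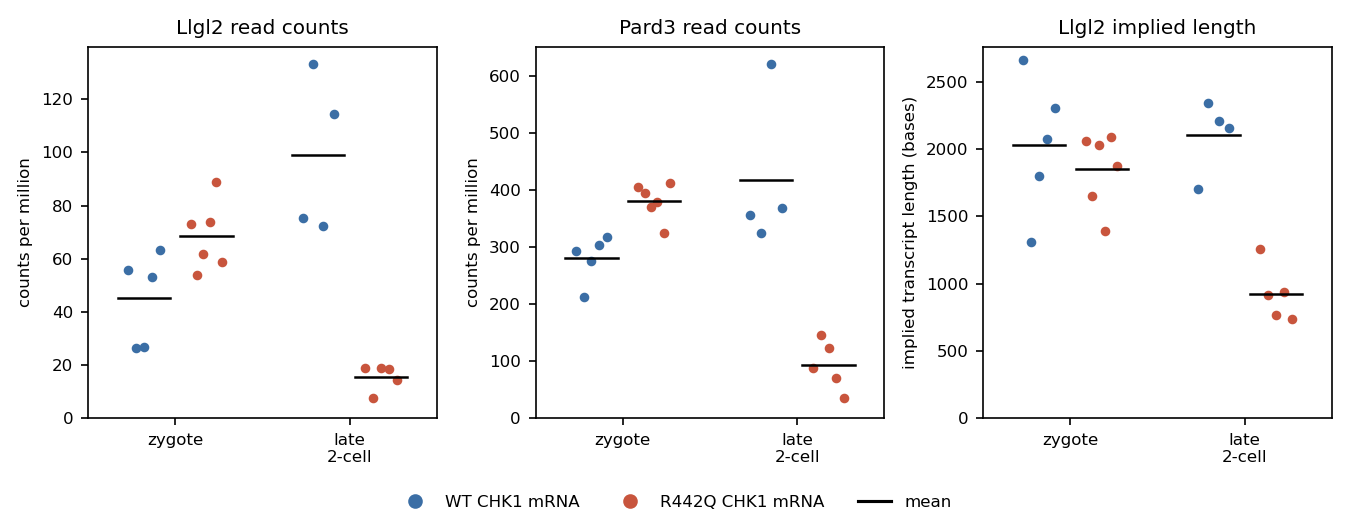
CPM of Llgl2 and Pard3, and the implied transcript length of Llgl2 in bases, in every zygote and late 2-cell embryo; points are embryos and bars are group means. In late 2-cell embryos all R442Q values lie below all WT values in each panel, for example at most 19.0 against at least 72.4 CPM for Llgl2.

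The other members of the PAR module did not pass the threshold between genotypes at either counted stage. Pard6b, the Pard6 protein on the list (chr2:168081004-168101203, plus strand), was at 10.4, 24.8, 16.4 and 29.1 CPM in WT and at 10.7, 11.5, 13.5, 26.1 and 4.15 CPM in R442Q late 2-cell embryos (log2 -0.55 ± 0.55, adjusted p = 0.616). Prkci, the atypical kinase also called aPKC iota or lambda (chr3:30995747-31052959, plus strand), was at 40.2, 40.2, 54.3 and 42.8 CPM in WT. R442Q late 2-cell embryos had 50.4, 72.7, 111, 50.6 and 47.7 CPM of it, and 2 of them lay above the WT range (log2 0.65 ± 0.32, adjusted p = 0.273). Prkcz, the zeta kinase (chr4:155260129-155361361, minus strand), shares 14.8% of its 50-base stretches with Prkcz2, so its counts are uncertain. It was at 25.8 to 56.2 CPM in WT and 11.9 to 45.2 CPM in R442Q late 2-cell embryos (log2 -0.34 ± 0.44, adjusted p = 0.721). In zygotes Pard6b, Prkci and Prkcz differed by 0.01 ± 0.18, 0.15 ± 0.13 and 0.86 ± 0.56 (log2), with adjusted p of 0.987, 0.525 and 0.36 (edgeR). Blastocyst FPKM of Pard6b was 4.17 to 27.2 in WT and 1 to 14.3 in R442Q, that of Prkci 1.35 to 17.1 and 6.64 to 11.33, and that of Prkcz 52.4 to 153 and 60.4 to 125. Prkcz thus stood far above Prkci in blastocysts of both genotypes, while Prkci stood above Prkcz in zygotes, at a WT mean of 32.0 against 1.04 FPKM.

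Ezr encodes ezrin, which ties the apical membrane to actin (chr17:6738041-6782784, minus strand, overlapping Sytl3 on the other strand). WT zygotes had 3.46, 3.79, 3.03, 11.1 and 4.52 CPM, and R442Q zygotes 6.39 to 17.5 CPM with a median of 10.6. The WT range reached into the R442Q one through WT replicate 4 alone. Ezr was 2.28-fold higher in R442Q zygotes (log2 1.19 ± 0.36, edgeR, adjusted p = 0.0388). The call was lost without any 1 of WT replicates 1, 2, 3 and 5 or R442Q replicates 1, 2, 3 and 6, with differences of 1.02 to 1.22 and adjusted p of 0.0575 to 0.0952. Late 2-cell embryos had 28.1, 20.5, 37.2 and 3.91 CPM in WT and 0, 11.4, 21.9, 1.51 and 4.26 CPM in R442Q. The 0 in R442Q replicate 1 allows up to 0.518 CPM at that depth, and the groups overlapped (log2 -1.49 ± 0.96, adjusted p = 0.408). Blastocysts had 34.9 to 101 FPKM in WT and 2.49 to 103 FPKM in R442Q, the lowest in replicate 7.

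**Figure D3:**
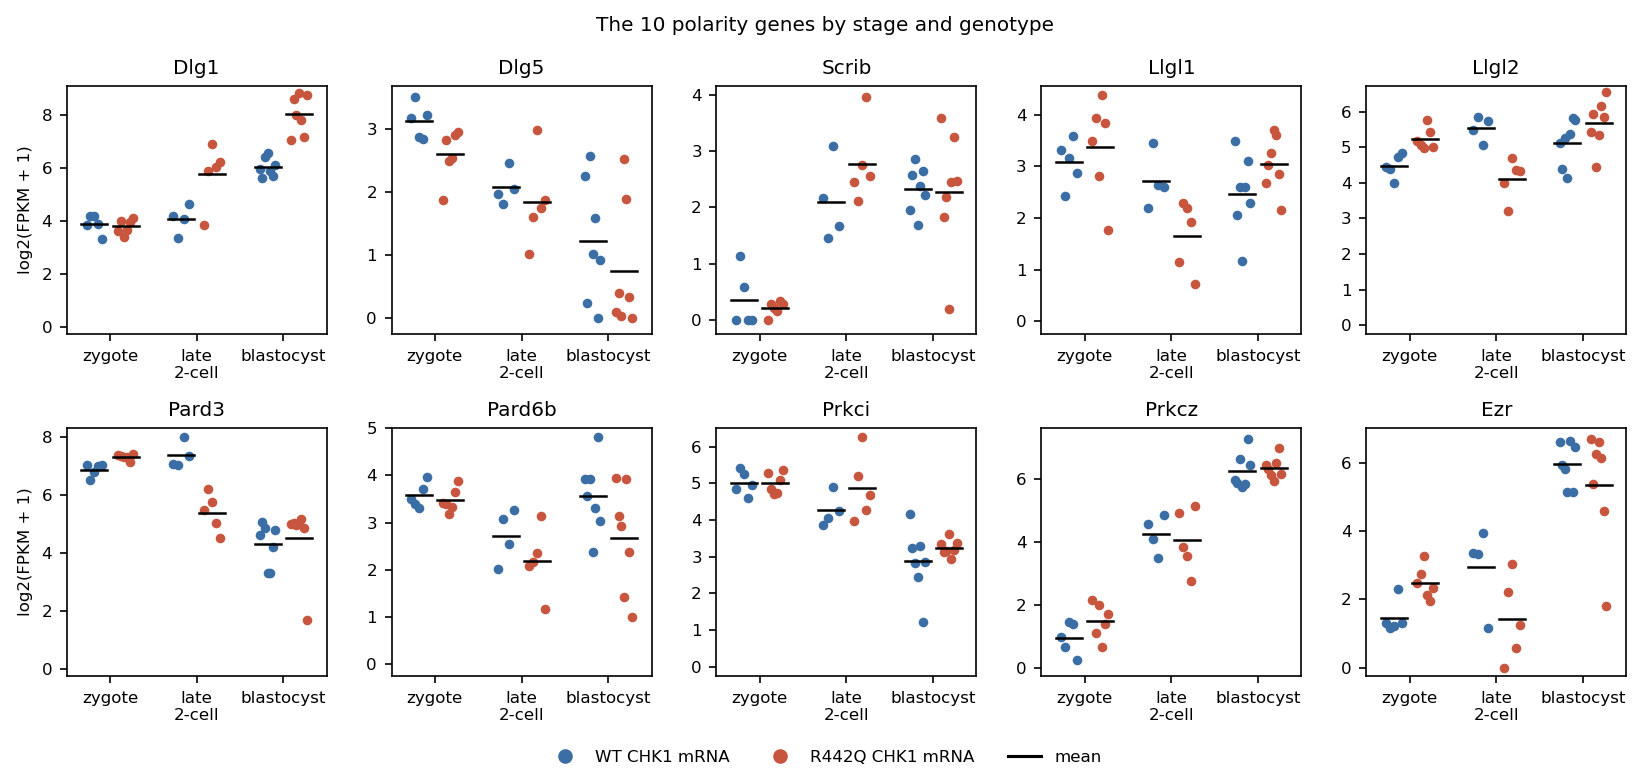
Log2(FPKM + 1) of the 10 genes in every embryo by stage and genotype; points are embryos, bars are means, and each panel has its own scale. Mean Ezr and Prkcz are higher in blastocysts, which also had the inhibitor, than in zygotes in both genotypes. Llgl2 and Pard3 are lower in R442Q than in WT late 2-cell embryos. The R442Q blastocyst at 2.23 FPKM of Pard3 and 2.49 FPKM of Ezr is replicate 7, and its Ezr lies below that of every R442Q zygote.

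The members' calls were set against those over all genes. Of the 9 members tested in zygotes, Pard3 and Ezr (2) were past the threshold, both higher in R442Q, where 13.2% of 12420 genes were, 783 higher and 860 lower. The 2 whose groups did not overlap, Dlg5 and Pard3, compare with 9.39% of genes. The median difference of the members was 0.56 against 0.01 over all genes. Of 32 other polarity genes tested, 3 passed, all lower in R442Q: Rdx, Kif13b and Dlgap5. Rdx, radixin, a relative of ezrin, was at 327 to 786 CPM in WT and 161 to 248 CPM in R442Q zygotes (log2 -1.15 ± 0.17, adjusted p = 4.7e-04). Kif13b, a kinesin that binds Dlg1, was at 13.8 to 28.3 and 4.22 to 11.2 CPM (log2 -1.36 ± 0.25, adjusted p = 0.0025). Dlgap5, a mitotic protein named for its similarity to the Dlg-associated proteins, was at 122 to 205 and 75.5 to 128 CPM (log2 -0.67 ± 0.14, adjusted p = 0.005). Pard3 and Ezr, as well as these 3 genes, were not past the threshold when both stages were fitted together with a shared spread, where Pard3 had an adjusted p of 0.319 and Ezr one of 0.544. In zygotes the oocyte and zygote markers summed to 5056 to 7578 FPKM in WT (median 6044) and 3458 to 5601 in R442Q (median 4621). The 2-cell markers summed to 22.8 to 67.4 (median 45.6) and 35.2 to 113.5 (median 60.9). Their part in these differences was not tested.

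In late 2-cell embryos Llgl2 and Pard3 were the 2 of 10 members past the threshold, both lower in R442Q, where 4.18% of 13883 genes were past it. The number of genes called there, 580, was 142 to 351 without any 1 of the WT embryos, lowest without replicate 2, 372 without R442Q replicate 2 and 891 without R442Q replicate 3. They were also the 2 whose counts did not overlap, against 12.4% of genes. The median difference of the members was -0.72 against 0.07 over all genes, and with GC content and length taken out it turned to 0.24 against 0.11, with 6 of 10 members above 0. Of 36 other polarity genes, 1 passed: Mark2, a PAR-1 kinase of the basolateral side, at 210 to 290 CPM in WT and 56.0 to 96.8 CPM in R442Q embryos (log2 -1.70 ± 0.28, adjusted p = 0.0096). Genotype differences at this stage ran with the GC content of genes: over 4 bins of equal size, the median difference was 0.38 in the bin of lowest GC and -0.36 in that of highest GC. Llgl2 has a GC content of 60.5%, Pard3 one of 52.8% and Dlg1 one of 43.8%. Of the other members above 55%, none past the threshold, Llgl1 (58.3%) was at -1.25, Dlg5 (56.9%) at -0.89 and Scrib (61.2%) at 0.24. With GC content and length taken out, Dlg5 was at 0.26, no member was past the threshold, and the difference of Mark2 was -0.54 (adjusted p = 0.468). Leaving out any 1 late 2-cell embryo kept Llgl2 and Pard3 past the threshold, with an adjusted p of at most 0.0345. A replicate block, by numbers not taken to pair embryos, lost both calls (edgeR, adjusted p = 0.0553 for each). Stage markers had higher medians in R442Q embryos, with ranges that overlapped: 5 oocyte and zygote markers summed to 1204 to 3108 FPKM in WT (median 1502) and 1619 to 6876 in R442Q embryos (median 4263). The 5 markers of the 2-cell stage summed to 79.0 to 996 FPKM (median 369.7) and 526.4 to 1870 (median 1435). All 10 were above an FPKM of 1 at the median in both genotypes. Their part in the lower Llgl2 and Pard3 was not tested.

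**Figure D4:**
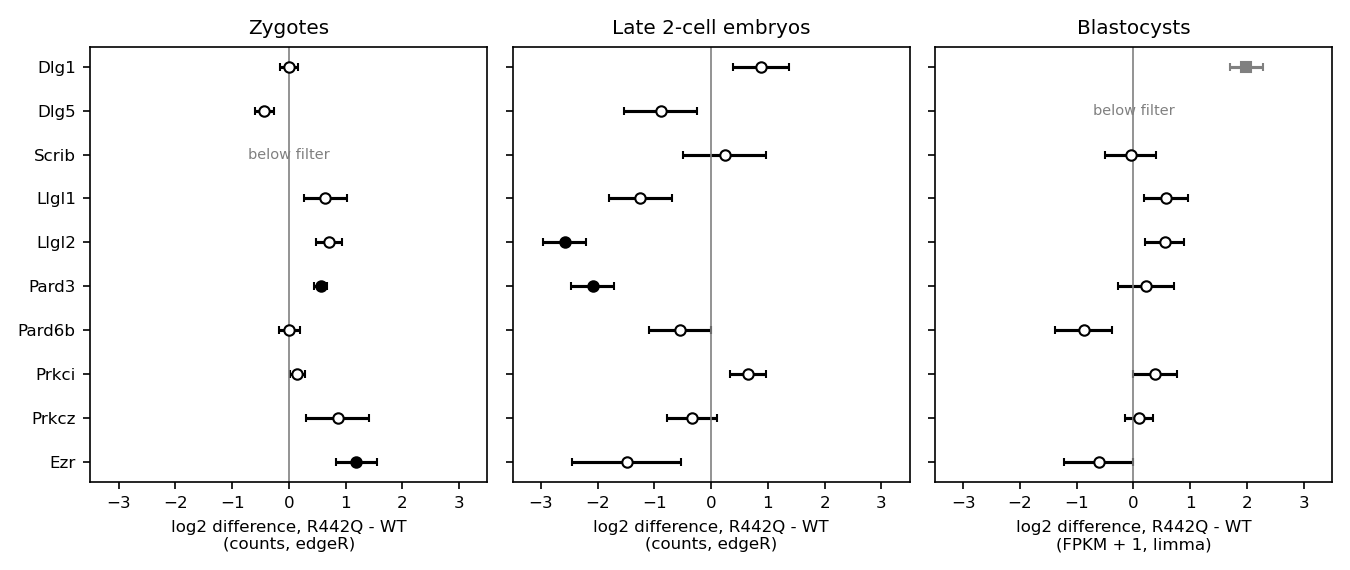
Log2 difference of R442Q minus WT for the 10 genes with SE bars, from counts (zygotes, late 2-cell embryos) or log2(FPKM + 1) (blastocysts); filled circles are past an adjusted p of 0.05, open ones are not, and the grey square is the difference by which Dlg1 was chosen. Pard3 is filled on opposite sides of 0 in zygotes (0.56) and late 2-cell embryos (-2.09).

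The change of the genotype effect between the counted stages was tested itself. It was past the threshold for Llgl2 (-3.39 ± 0.44, log2, late 2-cell effect minus zygote effect, edgeR, adjusted p = 4.9e-05) and Pard3 (-2.73 ± 0.38, adjusted p = 1.2e-04). These were 2 of 10 members, against 10.1% of 16199 genes. Of 40 other polarity genes, Mark2 passed (-2.12 ± 0.25, adjusted p = 2.1e-05). Over all genes the median of this term was -0.16 with TMM scaling and -0.01 with RLE size factors, which also moved the split of calls from 497 positive and 1142 negative to 707 and 917. The median of the R442Q stage change was 0.22 and 0.34 under these scalings. Llgl2 and Pard3 passed under each scaling, without any 1 embryo, and with the length and GC trends removed, where they were at -2.08 (adjusted p = 0.0118) and -1.83 (adjusted p = 0.0091), while Mark2 then had -0.89 (adjusted p = 0.0867). Dlg1 had 0.81 ± 0.50 (adjusted p = 0.33), Llgl1 -1.96 ± 0.69 (adjusted p = 0.0718) and Ezr -2.74 ± 1.06 (adjusted p = 0.104). With the trends removed Llgl1 had -0.69 (adjusted p = 0.605). It passed without R442Q zygote replicate 6 (-2.07, adjusted p = 0.0364), and Ezr without R442Q late 2-cell replicate 3 (-3.40, adjusted p = 0.0316).

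In blastocysts the other 8 members tested are given as a description too. Of these 0 passed (limma, 0 also at an unadjusted p of 0.05). Their differences ran from -0.88 ± 0.50 for Pard6b to 0.57 ± 0.39 for Llgl1 (log2(FPKM + 1)), and each group pair overlapped. Llgl2 and Pard3, lower in R442Q at the late 2-cell stage, differed by 0.55 ± 0.34 and 0.22 ± 0.50. The value of Pard3 rests on single embryos: it was 0.69 once R442Q embryo 7 was dropped, and was 0.05 with WT embryo 4 or 5 dropped. Of 26 other polarity genes tested, 0 passed, and 0 had an unadjusted p under 0.05, where 836 of the 11297 genes had one.

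From the zygote to the late 2-cell stage, WT embryos gained Prkcz, Llgl2 and Ezr and lost Dlg1. Scrib is left out of this count, because it passed the filter on low counts in late 2-cell embryos alone and so had to differ. The 4 of 9 members that passed the filter at both stages compare with 60.6% of 10853 such genes, where 61.2% of all 16199 genes tested were past the threshold. Stage and table cannot be told apart in this comparison, and levels are relative to each library's total. Prkcz rose 22.6-fold in WT (log2 4.50 ± 0.59, edgeR, adjusted p = 7.0e-07), from 0.23 to 3.51 CPM in zygotes. Llgl2 rose 2.10-fold (adjusted p = 0.0053). Its call was lost without WT zygote replicate 2 (0.77, adjusted p = 0.0522) or WT late 2-cell replicate 2 (0.69, adjusted p = 0.0904), and the difference was 0.03 with the length and GC trends removed. Ezr rose 4.02-fold (adjusted p = 0.0311), a call lost without any 1 of 11 embryos, namely WT zygotes 1, 2, 3 and 5, R442Q zygotes 1 to 4 and WT late 2-cell embryos 1 to 3, at 1.5 to 1.97. Dlg1 counts fell 1.83-fold (log2 -0.87 ± 0.38, adjusted p = 0.0474), a call lost without WT zygote 1, 3 or 4 or WT late 2-cell embryo 2 or 4, at -0.96 to -0.72. Pard3, Pard6b, Prkci, Dlg5 and Llgl1 were not past the threshold, at log2 0.49, -0.90, -0.19, -0.97 and -0.43. Dlg5 and Pard6b sat at the threshold (adjusted p = 0.0529 and 0.053): they passed in 13 and 14 of the 20 fits without 1 embryo and in 4 and 3 of 5 other settings. Llgl1 passed with the length and GC trends removed (-1.21, adjusted p = 0.0421), and ran from -0.96 without WT late 2-cell replicate 2 to -0.26 without WT zygote replicate 4, not past the threshold in either. The largest adjusted p among the 5 was 0.494.

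Between the same stages in R442Q embryos, Prkcz rose, and Dlg5, Llgl1, Llgl2, Pard3 and Pard6b fell. These were 6 of 9 members that passed the filter at both stages, against 66.5% of such genes and 65.1% of all genes tested. Llgl2 fell 5.01-fold (log2 -2.32 ± 0.31, adjusted p = 6.3e-07), Pard3 4.72-fold (-2.24 ± 0.27, adjusted p = 1.5e-07) and Llgl1 5.24-fold (-2.39 ± 0.49, adjusted p = 1.9e-04). Pard6b fell 2.91-fold and Dlg5 2.82-fold, the latter a call lost with the length and GC trends removed (-0.68, adjusted p = 0.0769). Dlg1 was at -0.06 ± 0.33 (adjusted p = 0.872), Prkci at 0.23 and Ezr at -0.73, none past the threshold. The genotypes' stage changes were shown to differ, by the interaction above, for Llgl2 and Pard3 and not for the other members.

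Other polarity genes passed at about or below the share of all genes. In WT embryos 24 of 40 passed, against 61.2% of all genes, 13 higher and 11 lower at the late 2-cell stage, with a median of -0.38 against 0.34 over all genes. That median of all genes depended on the fit: it was 0.16 to 0.40 without any 1 embryo, and 0.06 with the length and GC trends removed, where the list had -0.52. In R442Q embryos 22 of 40 passed, against 65.1% of all genes, 9 higher and 13 lower. These splits include genes that did not pass the filter at both stages. Of the 30 that did, 16 passed the threshold in WT, 6 higher and 10 lower, or 53.3% against 60.6% of all such genes. In R442Q 17 of them passed, 5 higher and 12 lower, or 56.7% against 66.5%. Dlg3, Mark1, Crb2, Msn and Celsr2 did not pass the filter in zygotes, nor Prickle2 and Celsr2 in late 2-cell embryos. Their changes are therefore descriptions, and their calls, kept or lost, support nothing. Among the Dlg relatives and partners, Dlg3 rose from 0 to 2.14 CPM in WT zygotes to 11.5 to 20.5 CPM, and Dlgap4 fell 4.43-fold. Among the PAR partners, Tiam1, an activator of the GTPase Rac, fell 6.49-fold in WT. Mark1 rose from at most 1.15 CPM to 0.647 to 17.9 CPM, a call lost without WT late 2-cell replicate 2 (2.47, adjusted p = 0.151). In the Crumbs complex Crb1, a gene of the transmembrane protein, fell from 45.4 to 74.6 CPM in WT zygotes to 0.145 to 10.04 CPM. Crb2, another such gene, was at 0 counts in all 5 WT zygotes and at 0.581 to 4.85 CPM afterwards, which is 4 to 30 counts. Crb1 and Crb2 were not tested against each other. Of the ezrin relatives, Rdx fell 5.03-fold and Msn, moesin, rose from at most 1.22 CPM to 2.47 to 37.5 CPM. Of the planar polarity genes, Celsr2, at 0 counts in all 5 WT zygotes, reached 0 to 2.78 CPM, and Prickle2 fell from 4.94 to 8.93 CPM to 0 to 1.70 CPM. The call of Prickle2 was lost without WT zygote 5 or WT late 2-cell embryo 2 or 4, at -3.01 to -2.72. Late 2-cell and blastocyst FPKM of the members can only be set side by side. Their tables were normalised separately, and by the labels only the blastocysts had the inhibitor, so stage and inhibitor cannot be told apart. In WT, mean Ezr was 8.55 and 67.6, Prkcz 19.2 and 80.9, Dlg1 16.7 and 66.3, Pard3 171 and 20.9, and Prkci 19.1 and 7.52.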

How the data were processed

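Single-embryo cDNA was made with SMART-seq2 and sequenced, per the labels' protocols. The authors' deposited estimated counts per gene symbol (zygotes, late 2-cell embryos) and deposited FPKM values (all 3 stages, each table normalised separately) were used as deposited. The submitters' processing notes name RSEM and mm10, and the annotation is not given in the sources used here. Groups and replicate numbers were taken from the sample titles. Nothing in the labels says that embryos came from separate litters, so p-values measure the spread between these embryos.

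Counts were rounded and tested in edgeR 4.0.16 (R 4.3.3): filterByExpr with a minimum count of 10, TMM scaling, quasi-likelihood test, each stage alone, and a joint model of 4 groups for the stage changes and the interaction. Blastocysts were tested in limma 3.58.1 on log2(FPKM + 1) for genes that reached an FPKM of 1 in 7 or more of the 14 embryos, so fold changes of low genes are understated. Benjamini-Hochberg adjusted p over all genes tested had a threshold of 0.05. CPM is the count after each library's summed counts are scaled to 1 common total. SE is the log2 difference divided by the root of the F statistic, or limma's own. Both fits were also run on simulated data, with the same set spread for every gene and changes in well-expressed genes only. That setting is simpler than these embryos, so it does not show how the fits perform on them. Floors (3 counts) leave out every error other than that of counting, as reads from amplified cDNA are not separate molecules.

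The members, the 44 other polarity genes (5 lists) and the markers were chosen with earlier results of these data known. Named were all members, up to 6 other polarity genes past the threshold per genotype comparison, the largest rise and fall past the threshold per list from WT zygote to late 2-cell, and the 5 genes most like Dlg1. Gene positions, lengths and GC content are from GENCODE M21 (GRCm38), and start-site windows are from RefSeq (GRCm38.p6), which held 8 of the 10 members (not Scrib and Llgl2). The alternatives were DESeq2 1.42.0, RLE size factors, no filter, limma on FPKM, a pseudocount of 0.1, TMM scaling and embryo weights for blastocysts, both stages together, a replicate block, each embryo left out and, chosen later, length and GC trends removed for the 99.2% of genes with both, and a block by the numbers in the sample descriptions, which differ from those in the titles before the blastocyst stage.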

Additional observations from a re-analysis of the deposited data

Results flagged for a closer look

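Several patterns of values stood out among the 10 genes. The first is a genotype effect that differed between zygotes and late 2-cell embryos, by the interaction term in edgeR: -3.39 for Llgl2 and -2.73 for Pard3 (log2), and -2.12 for Mark2 among the other polarity genes. Its cause was not tested.

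The others are single embryos far from their group. Of 60 groups of embryos examined (10 genes, 3 stages and 2 genotypes), 3 held such an embryo, and chance flags about 1 in 20 groups, which is as many. WT zygote replicate 4 had 11.1 CPM of Ezr where the other WT zygotes had 3.03 to 4.52. WT late 2-cell replicate 3 had 622 CPM of Pard3 where the others had 325 to 368. R442Q blastocyst replicate 7 had 2.23 FPKM of Pard3 where the others had 28.0 to 35.3, and this embryo also had the fewest genes detected.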

How the results depend on the processing

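The counts of members past the threshold are limited by how close several sit to it. In zygotes the count was 2, 3 in DESeq2, with RLE size factors, with no filter, in limma on FPKM and with the trends removed, and 0 with both stages fitted together. It ranged from 1 to 2 when 1 embryo was left out. Late 2-cell embryos had 2, and 0 with the length and GC trends removed. Blastocysts had 1, which is Dlg1 in the contrast that chose it, so neither the count nor its stability supports anything. It was 0 with no filter on low values, which tests more genes, and 0 to 1 without 1 blastocyst, lost in 10 of 14 fits, with the Dlg1 difference at 1.86 to 2.15. The WT stage change had 5 (Scrib included), and 3 to 7 with 1 embryo left out. Over all genes, calls between late 2-cell genotypes numbered 580, and 1780 in DESeq2, 889 with no filter, 2507 with both stages together, 58 with the block and 160 with the trends removed (77 higher and 83 lower, against 170 and 410). They ran from 142 to 891 with 1 embryo left out. Zygote calls numbered 1643, and 270 with both stages together, and in limma on FPKM they split into 411 higher and 1231 lower. Interaction calls numbered 1639, and 2526 in DESeq2, 1085 with the block, 887 with the trends removed and 1089 without WT zygote replicate 2. Blastocyst calls numbered 1, 5 with TMM scaling or embryo weights, and 0 to 30 with 1 embryo left out (30 without WT replicate 7, 0 in 10 of 14 fits). With a replicate block, the count was 0 in late 2-cell embryos (Llgl2 -2.56 and Pard3 -1.89, both with an adjusted p of 0.0553) and 0 in blastocysts, and was 2 in zygotes. Same-numbered embryos did not deviate together (correlations of -0.06 to 0.06 in zygotes, -0.16 to 0.22 in late 2-cell embryos and -0.17 to 0.20 in blastocysts, own number best in 1 of 5, 1 of 4 and 2 of 7), so the numbers are not taken to pair embryos. These are the numbers of the sample titles; those in the descriptions differ before the blastocyst stage. Same-numbered embryos by description had correlations of -0.07 to 0.05 over 5 zygote pairs and -0.16 to -0.07 over 3 late 2-cell pairs. With these as the block, added after seeing the data, 1 member passed in zygotes (Ezr had 0.0736) and 0 in late 2-cell embryos (Llgl2 -2.78 and Pard3 -1.72, adjusted p = 0.143 and 0.162; Mark2 0.154). Over all genes there were then 1004 calls in zygotes and 0 in late 2-cell embryos (edgeR, 2158 at an unadjusted p under 0.05). With the block the interaction of Llgl1 passed (-2.07, adjusted p = 0.0485), Ezr in zygotes had an adjusted p of 0.0745, Mark2 in late 2-cell embryos 0.0663, and the WT stage changes of Dlg1, Ezr, Mark1 and Prickle2 0.0661, 0.137, 0.0645 and 0.0572. The WT fall of Dlg1 had 0.0581 with no filter and the WT rise of Celsr2 0.0544 in DESeq2. With the trends removed the WT rise of Ezr had 0.0863 and the R442Q fall of Dlg5 0.0769. Llgl2 in zygotes passed under DESeq2, RLE, no filter, limma on FPKM, the block and the trends removed (adjusted p of 0.0063 to 0.049).

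Several differences not past the threshold changed sign. In zygotes Dlg1 was at -0.02 with no filter, -0.09 in limma on FPKM and -0.03 with the block, and Pard6b at -0.02, -0.10 and -0.06. Prkci was at -0.01 in limma on FPKM. With 1 zygote left out Dlg1 ran from -0.11 to 0.10 and Pard6b from -0.08 to 0.13. In late 2-cell embryos Scrib was at -0.20 with the block and at -0.40 to 0.49 with 1 embryo left out. With the length and GC trends removed, Dlg5 was at 0.26 (from -0.89), Pard6b at 0.23 and Prkcz at 0.37 there, and the interaction of Dlg5, Scrib and Pard6b at 0.46, 0.65 (from -0.70) and 0.24 (from -0.64). The Scrib interaction ran from -1.77 to 0.06 with 1 embryo left out. The R442Q stage change of Dlg1 was at 0.05 in DESeq2 and with RLE size factors, 0.22 with the trends removed, and -0.18 to 0.03 with 1 embryo left out. In blastocysts Scrib ran from -0.27 to 0.30 and Prkcz from -0.0037 to 0.27 with 1 embryo left out. None of these was past the threshold in either setting, and their causes were not tested. Few counts limit what can be said of Scrib in zygotes, and low FPKM limits Dlg5 in blastocysts.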
